A study of Mus musculus with 6 samples.

Results

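Kcnj13, Kcne2, Calml4, Sostdc1, Igf2, Igfbp2, Ace, Trpv4, Col8a1 and Slc13a4 are 10 genes used as markers of the choroid plexus, and some of them also of the leptomeninges, and they were read in hippocampal RNA-seq of methamphetamine (MA)-treated mice. They were selected by gene symbol and do not include Ttr, Folr1 and Kl, the usual choroid plexus genes, although earlier results of these data were known at the selection. All 10 were found among 16060 rows of the deposited table, each on a single row. Hippocampus of adult male C57BL/6 mice was sequenced as 3 libraries labelled Control, from mice injected with saline, and 3 labelled MA, from mice whose MA dose rose by the week, with 5 mg/kg in week 1, 10 mg/kg in week 2 and 15 mg/kg in week 3. The mice were killed after the behavioral tests of day 22. No gene was deleted or carried as a transgene in either group, so there is no targeted gene against which the labels could be checked.

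The choroid plexus is a folded sheet of secretory epithelium around a core of vessels and fibroblasts that hangs into the brain ventricles and produces cerebrospinal fluid. The choroid plexus of the lateral ventricle is attached along the fimbria of the hippocampus, and the leptomeninges, thin fibroblast sheets, cover the outer surface of the brain. The epithelium moves ions and water with channels and transporters, secretes growth factors and carrier proteins, and is among the brain tissues known for making insulin-like growth factor 2. The 10 genes fall into ion channels (Kcnj13, Kcne2, Trpv4), a sulfate transporter (Slc13a4), a growth factor with its binding protein (Igf2, Igfbp2), a peptidase (Ace), a secreted signalling antagonist (Sostdc1), a calmodulin-like protein (Calml4) and a collagen chain (Col8a1).

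All 10 genes were higher in each library labelled MA than in each library labelled Control. Log2 fold changes, the MA mean less the Control mean on the deposited log2 scale, ranged from 0.74 for Col8a1 to 2.07 for Kcne2. Their median was 1.33, against -0.010 for all 13321 tested genes, of which 47.3% were positive. All 10 passed the filter on low values (a back-transformed level of at least 0.5 in at least 3 libraries). Col8a1 was under 0.5 in every Control library and passed only through the MA libraries. The filter thus fixed its separation and the sign of its change in advance, so its place in these counts is not informative. Complete separation with MA above Control was found in 7.32% of all tested genes, and with MA below Control in 10.2%. A log2 fold change over 1 was reached by 8 of the 10, against 0.495% of tested genes. At an adjusted p-value under 0.05 (limma, Benjamini-Hochberg adjustment over all tested genes) 2 of the 10, Ace and Slc13a4, rose, against 0.165% of tested genes called higher in MA and 0.263% called in either direction. The other 8 had limma adjusted p-values from 0.0570 for Sostdc1 to 0.458 for Trpv4. At an unadjusted limma p under 0.05 all 10 were higher, against 4.99% of tested genes higher and 5.46% lower. For each gene an exact two-sided permutation test gave p = 0.1, the smallest p that 3 libraries against 3 allow. In RNA of whole tissue, more cells of a type and more RNA per cell cannot be told apart.

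**Figure D1:**
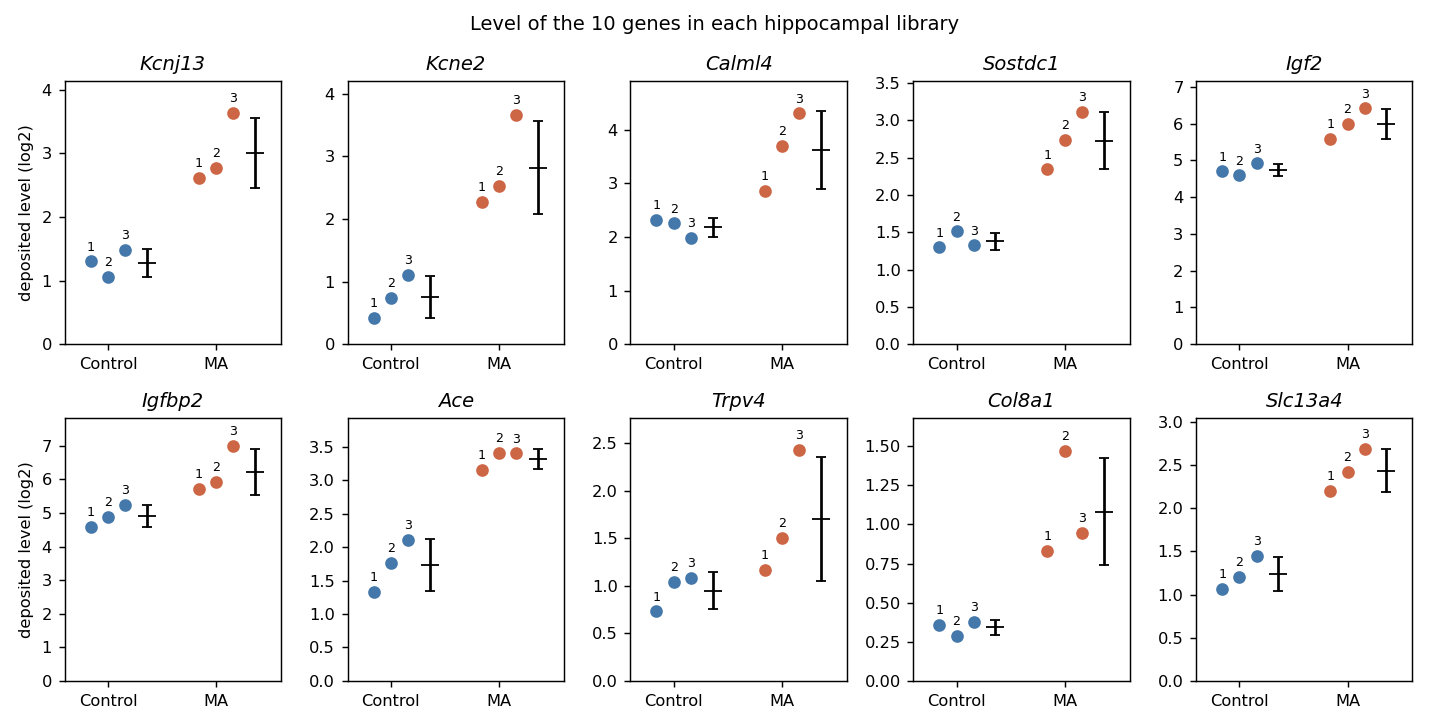
Deposited log2 level of each of the 10 genes (y axis, starting at 0) in the 3 Control (blue) and 3 MA (orange) hippocampal libraries, with the replicate number above each point and the group mean with its SD beside the points. The groups do not overlap for any of the 10 genes, the gap between them is narrowest for Trpv4 at 0.088, and MA replicate 1 is the lowest MA library for all 10.

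The libraries differed in ways that touch these genes. The library labelled MA replicate 3 correlated least with its own group (mean Pearson r of 0.978 across tested genes, against 0.984 to 0.993 for the other 5) and had the smallest limma quality weight, 0.194. It listed no gene at 0, whereas the other 5 listed 259 to 437 genes at 0. The lowest log2 value of MA replicate 3 was 0.000206, so the lack of zeros does not show that every gene was detected in it. Its highest value, 12.30, belongs to Ttr and is also the highest value of each other library, since the deposited libraries share nearly the same distribution of values. Without this library, 6 of the 10 genes passed the adjusted threshold (limma; 1.19% of tested genes were called higher in MA in that fit): Kcnj13, Kcne2, Sostdc1, Igf2, Ace and Slc13a4. With limma's sample quality weights all but Trpv4 passed, 9 of the 10, against 2.35% of tested genes. Col8a1 is among these 9 but passed the filter only through the MA libraries, so its call is not informative. With the replicate number as a block Ace and Kcne2 passed, against 0.0826%. Among markers of hippocampal neurons, Neurod2 stood between 5.93 and 6.57 on the log2 scale over the 6 libraries, with a log2 fold change of -0.25. All 10 of these neuron markers had negative log2 fold changes. Read depth is unknown, and the labels and methods name no batch.

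The sequences before the transcription start are shown for 3 of the genes, namely Kcnj13, the inward rectifier channel whose groups stood far apart, and Ace and Igf2, the members whose windows held a searched motif. Each window runs from 250 bases before the start site to 50 bases after the window's start site (RefSeq, GRCm38.p6), 5′ to 3′ on the gene's strand, and capitals mark the letters TAATCC, the core bound by OTX-type homeodomain factors, or their reverse complement.
Kcnj13, chr1:87394680-87394979, minus strand: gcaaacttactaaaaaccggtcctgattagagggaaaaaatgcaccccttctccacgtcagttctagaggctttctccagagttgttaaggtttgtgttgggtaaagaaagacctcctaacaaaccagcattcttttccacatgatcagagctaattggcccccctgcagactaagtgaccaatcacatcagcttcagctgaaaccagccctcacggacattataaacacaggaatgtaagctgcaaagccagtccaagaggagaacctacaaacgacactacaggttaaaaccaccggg
Ace, chr11:105967698-105967997, plus strand: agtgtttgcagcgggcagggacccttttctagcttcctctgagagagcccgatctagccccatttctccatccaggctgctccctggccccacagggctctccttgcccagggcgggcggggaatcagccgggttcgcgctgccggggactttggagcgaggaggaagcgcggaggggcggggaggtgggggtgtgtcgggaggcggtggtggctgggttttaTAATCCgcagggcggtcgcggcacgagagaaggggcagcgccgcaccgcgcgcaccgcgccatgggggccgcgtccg
Igf2, chr7:142658755-142659054, minus strand: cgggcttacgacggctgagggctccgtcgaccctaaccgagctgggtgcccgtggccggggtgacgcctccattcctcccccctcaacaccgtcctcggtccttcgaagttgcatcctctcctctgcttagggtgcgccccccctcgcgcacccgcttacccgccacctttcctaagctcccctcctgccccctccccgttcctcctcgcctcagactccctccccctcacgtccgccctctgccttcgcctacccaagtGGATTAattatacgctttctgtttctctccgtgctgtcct
In Ace the motif lies on the gene's strand, with its first base 27 bases before the start site. In Igf2 it lies on the opposite strand, beginning 10 bases after the start site of a window that is 1 of 4 for this gene. Windows were matched for 9 of the 10 genes, with Sostdc1 not matched. TAATCC was found on either strand in 2 of their 15 windows and in 7.06% of all 32851 windows. The forkhead core GTAAACA was found in 0 of the 15 and in 3.65% of all windows. A match describes letters only.

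Kcnj13 (ENSMUSG00000079436, chr1:87386363-87394729 of GRCm38, minus strand) encodes the inward rectifier potassium channel Kir7.1, which sits in the apical membrane of choroid plexus epithelium. Its level was 1.30, 1.05 and 1.48 on the log2 scale in Control replicates 1, 2 and 3 and 2.61, 2.77 and 3.63 in MA replicates 1, 2 and 3. MA replicate 3 was the highest, and the lowest MA library stood 1.14 above the highest Control library. The MA libraries were higher by a log2 fold change of 1.73 (limma, standard error 0.27, adjusted p = 0.0645). Without MA replicate 3 it was 1.41 (limma adjusted p = 0.0239, within a range of 0.00587 to 0.285 over 14 alternatives). Kcnj13 lies opposite Gigyf2 on the other strand, and the sources used here do not state whether counting used strand. Gigyf2 was 4.34 ± 0.11 in the Control and 4.30 ± 0.18 in the MA libraries (n = 3 each, SD), with a limma adjusted p of 0.937.

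Kcne2 (ENSMUSG00000039672, chr16:92292389-92298129, plus strand) encodes a small beta subunit that assembles with potassium channel pores at the apical side of the epithelium. Its level was 0.42, 0.73 and 1.11 in Control replicates 1, 2 and 3 and 2.27, 2.53 and 3.66 in MA replicates 1, 2 and 3 on the log2 scale. It showed the largest log2 fold change of the 10 genes, 2.07 (limma, standard error 0.36, adjusted p = 0.0975), and ranked 10 among all tested genes by log2 fold change. After back-transformation of the values (2 to the power of the level, minus the inferred offset of 1), the mean was 0.720 ± 0.409 in the Control and 6.75 ± 4.25 in the MA libraries (n = 3 each, SD). The means thus gave a 9.37-fold difference, and a 5.98-fold difference without MA replicate 3. Its limma adjusted p was 0.0274 without that library, within a range of 0.00928 to 0.421 over 14 alternatives.

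Trpv4 (ENSMUSG00000014158, chr5:114622152-114658421, minus strand) encodes a calcium-permeable cation channel that responds to cell swelling. Its log2 level was 0.73, 1.04 and 1.08 in the Control libraries and 1.17, 1.50 and 2.43 in the MA libraries, in replicate order. MA replicate 3 stood apart from the other MA libraries, and MA replicate 1 only just above the Control libraries. Its log2 fold change was 0.75 with all libraries (limma, standard error 0.30, adjusted p = 0.458) and 0.39 without MA replicate 3 (limma adjusted p = 0.219), and the fold of back-transformed means went from 2.64 to 1.63. Trpv4 passed the adjusted threshold in none of 14 alternatives, where its limma adjusted p was 0.127 to 0.884.

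Slc13a4 (ENSMUSG00000029843, chr6:35267957-35308131, minus strand) encodes a sodium-coupled sulfate transporter found in both choroid plexus and leptomeninges. Its log2 level was 1.06, 1.21 and 1.45 in Control replicates 1, 2 and 3 and 2.20, 2.42 and 2.69 in MA replicates 1, 2 and 3. The libraries of each group lay close together and the groups were 0.75 apart. Slc13a4 rose by 1.20 (limma, standard error 0.16, 95% interval 0.82 to 1.58, adjusted p = 0.0437). The call was lost in 9 of 14 alternatives, with limma adjusted p-values of at most 0.204, namely a pseudocount of 0.1 or 0.01, no filter, the replicate block and every fit without a single library other than MA replicate 3.

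Igf2 and Igfbp2 were the most abundant of the 10 genes per length of transcript, with mean log2 levels of 4.74 and 4.91 in the Control libraries. Igf2 (ENSMUSG00000048583, chr7:142650766-142666816, minus strand) encodes insulin-like growth factor 2, a secreted growth factor whose gene is imprinted. Igf2 stood at 4.70, 4.59 and 4.92 in Control replicates 1, 2 and 3 and 5.58, 5.99 and 6.42 in MA replicates 1, 2 and 3 on the log2 scale. The highest MA library was replicate 3 and the groups were 0.66 apart. With all libraries the log2 fold change was 1.26 (limma, standard error 0.20, adjusted p = 0.0783), and it was 1.05 without MA replicate 3 (limma adjusted p = 0.0301). Over 15 alternatives the limma adjusted p of Igf2 ranged from 0.00846 to 0.348. Mir483 and Gm49394 overlap Igf2 on its own strand and Igf2os on the other, so its reads could be shared with them. Igf2os had log2 levels of at most 0.17 in all 6 libraries and fell under the filter.

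Igfbp2 (ENSMUSG00000039323, chr1:72824503-72852474, plus strand) encodes a secreted protein that binds insulin-like growth factors. On the log2 scale it stood at 4.59, 4.88 and 5.25 in Control replicates 1, 2 and 3 and 5.72, 5.92 and 7.01 in MA replicates 1, 2 and 3. MA replicate 3 stood above the other 2 MA libraries by more than they stood above Control replicate 3. The difference on the log2 scale was 1.31 (limma, standard error 0.33, adjusted p = 0.250). Without MA replicate 3 it was 0.92 (limma adjusted p = 0.0645).

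Ace (ENSMUSG00000020681, chr11:105967945-105989964, plus strand) encodes angiotensin-converting enzyme, the membrane peptidase that forms angiotensin II. Its log2 level was 1.33, 1.76 and 2.11 in Control replicates 1, 2 and 3 and 3.15, 3.41 and 3.40 in MA replicates 1, 2 and 3. It was the gene of the 10 with the smallest SD between MA libraries, 0.15, and the only one with a larger SD in the Control libraries, 0.39. The other 9 had the larger SD in the MA libraries, as did 71.1% of tested genes. Ace rose by 1.59 (limma, standard error 0.20, 95% interval 1.13 to 2.05, adjusted p = 0.0332), from 2.40 ± 0.895 to 9.02 ± 0.993 after back-transformation (SD, n = 3 each). The call was lost in 8 of 15 alternatives, with limma adjusted p-values of at most 0.162, namely a pseudocount of 0.1 or 0.01, no filter and the 5 fits that left out a library other than MA replicate 3. Gm11651 overlaps Ace on the other strand.

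**Figure D2:**
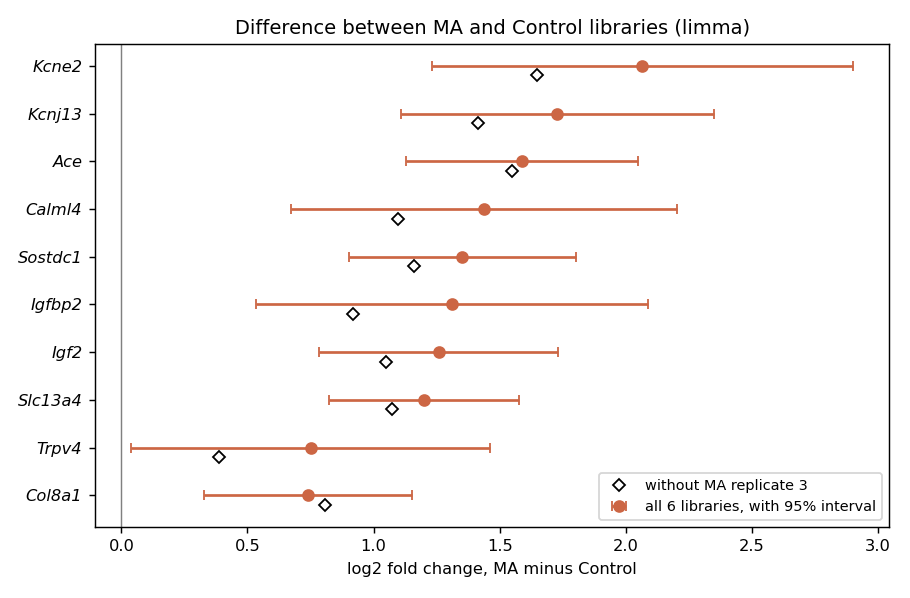
Log2 fold change of each of the 10 genes, MA minus Control (x axis), from limma with all 6 libraries (filled circle, 95% interval as bar) and without MA replicate 3 (open diamond). The estimate without that library is lower for 9 genes and higher for Col8a1, and Ace moves least.

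Sostdc1 (ENSMUSG00000036169, chr12:36314139-36318452, plus strand) encodes a secreted antagonist of BMP and Wnt signalling. Its log2 level was 1.30, 1.51 and 1.32 in Control replicates 1, 2 and 3 and 2.34, 2.74 and 3.11 in MA replicates 1, 2 and 3. The Control libraries lay within a narrow range and the groups were 0.83 apart. MA minus Control gave 1.35 (limma, standard error 0.19, adjusted p = 0.0570), and 1.16 without MA replicate 3 (limma adjusted p = 0.0274). Over 14 alternatives its limma adjusted p ranged from 0.00675 to 0.259.

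Calml4 (ENSMUSG00000032246, chr9:62858080-62875921, plus strand) encodes a calmodulin-like protein of microvilli. On the log2 scale its level was 2.32, 2.25 and 1.98 in Control replicates 1, 2 and 3 and 2.86, 3.69 and 4.30 in MA replicates 1, 2 and 3. It was the gene of the 10 that was lowest in Control replicate 3, the library in which 8 of the others had their highest Control level. Calml4 had a log2 fold change of 1.44 (limma, standard error 0.33, adjusted p = 0.209). Without MA replicate 3 it was 1.10 (limma adjusted p = 0.0734). Gm10653 overlaps Calml4 on the other strand.

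Col8a1 (ENSMUSG00000068196, chr16:57624258-57754737, minus strand) encodes a chain of the short collagen VIII, a matrix protein of vessels and basement membranes. The level on the log2 scale was 0.36, 0.29 and 0.38 in Control replicates 1, 2 and 3 and 0.83, 1.47 and 0.95 in MA replicates 1, 2 and 3. It was the lowest of the 10 genes per length, and its highest MA library was replicate 2. Its back-transformed level was under 0.5 in every Control library. It therefore passed the filter only through the MA libraries, which fixed its separation in advance. Col8a1 had a log2 fold change of 0.74 (limma, standard error 0.18, adjusted p = 0.220). On the back-transformed scale the means differed 4.32-fold, as the offset of 1 compresses the log2 difference of low genes.

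The 10 genes shared an order of libraries. MA replicate 1 was the lowest MA library for 10 of 10 genes, which holds for 30.6% of all tested genes. MA replicate 3 was the highest for 8 of 10, against 41% of tested genes, and MA replicate 2 was the highest for Ace and Col8a1, 2 of 10 against 26.6%. Among the Control libraries, replicate 3 was the highest for 8 of 10, against 34.8% of tested genes, and replicate 1 was the lowest for 6 of 10, against 32.8%. This order was not particular to the 10 genes. MA replicate 1 was the lowest MA library for 15 of 20 tested choroid plexus epithelium genes and 9 of 10 ependymal genes, and MA replicate 3 the highest for 12 and 9 of them. Control replicate 3 was the highest Control library for 14 of the 20 epithelium genes and 1 of the 10 ependymal genes. The median ratio of the back-transformed level to its Control mean was 2.58 in MA replicate 1, 3.44 in MA replicate 2 and 4.49 in MA replicate 3. In MA replicate 3 the ratios ranged from 3.28 for Igf2 to 16.2 for Kcne2, so the genes differed in size of change within a single library.

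**Figure D3:**
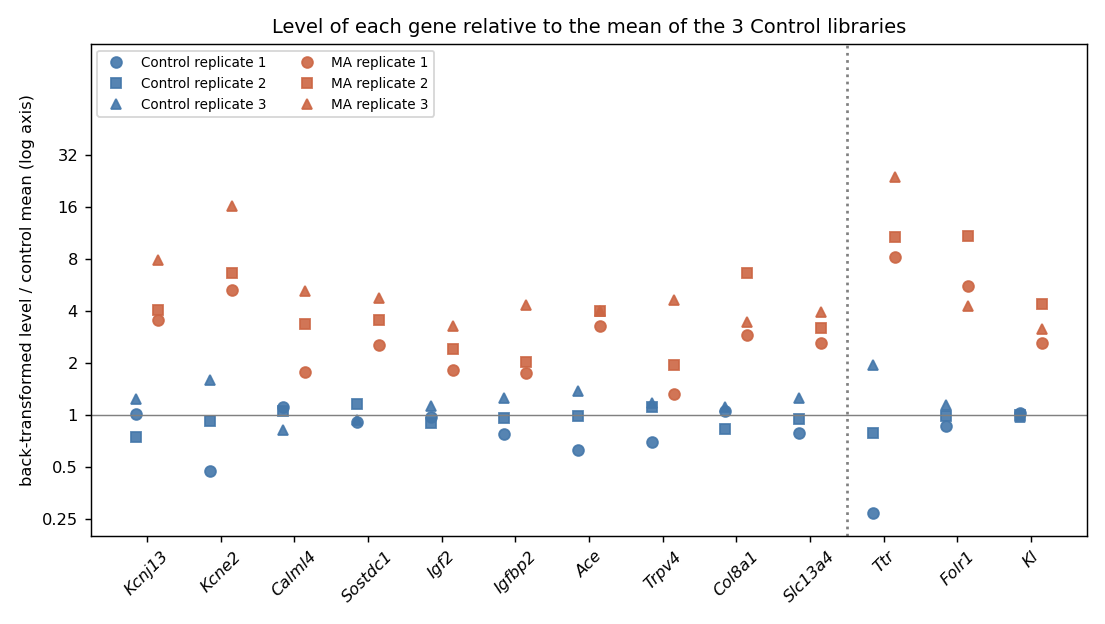
Back-transformed level of the 10 genes and, right of the dotted line, of Ttr, Folr1 and Kl in each library, divided by the mean of the 3 Control libraries (log axis). Circles, squares and triangles are replicates 1, 2 and 3 of Control (blue) and MA (orange). MA replicate 3 is the highest point for Kcne2 (16.2) and Ttr (23.8), whereas MA replicate 2 is the highest for Folr1 (10.8) and Kl (4.40). The Ttr level of MA replicate 3 lies at the maximum value that all libraries share.

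Beside the 10 genes stand Ttr, Folr1 and Kl, measured in the same libraries. Ttr, which encodes the thyroid hormone carrier transthyretin, had log2 levels of 5.87, 7.39 and 8.68 in Control replicates 1, 2 and 3 and 10.77, 11.14 and 12.30 in MA replicates 1, 2 and 3. Its log2 fold change of 4.09 was the highest of all tested genes, its limma adjusted p was 0.0887, and its Control libraries had an SD of 1.41. The Ttr level in MA replicate 3 is the maximum value that all libraries share, which limits how its size can be read. The folate receptor gene Folr1 had log2 levels of 1.24, 1.35 and 1.48 in the Control and 3.28, 4.17 and 2.94 in the MA libraries, and rose by 2.10 (limma adjusted p = 0.0456). Kl, which encodes the FGF23 co-receptor klotho, had log2 levels of 1.93, 1.89 and 1.86 in the Control and 3.02, 3.70 and 3.26 in the MA libraries, and rose by 1.43 (limma adjusted p = 0.0325). Folr1 was lowest among the MA libraries in replicate 3, where Kcnj13, Kcne2 and Ttr were highest.

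Of 23 symbols listed for choroid plexus epithelium, Ttr, Folr1 and Kl among them, 21 were found and 20 tested. Their median log2 fold change was 1.41. Of the 20, 17 lay wholly above the Control libraries, against 7.32% of tested genes. At the adjusted threshold (limma) 8 rose, against 0.165% of tested genes: Folr1, Kl, Clic6, Enpp2, Aqp1, Cldn2, Slc4a5 and Mfrp. Prlr, Slc4a5, F5, Krt8 and Mfrp had back-transformed levels under 0.5 in every Control library. These genes passed the filter only through the MA libraries, which fixed their separation in advance. Enpp2, the autotaxin gene and the most abundant after Ttr, rose by 2.13 (limma adjusted p = 0.0244). The groups overlapped for Car12, a carbonic anhydrase gene, Tmem72 and Pon3, which had log2 fold changes of 0.32, 0.08 and 0.34. The summed back-transformed level of the list was 111 to 489 in the Control and 1949 to 5334 in the MA libraries, and that of the 10 genes 58.8 to 80.1 and 131 to 282. Ttr made up most of the former sum. Without Ttr it was 53.8 to 79.0 in the Control and 205 to 301 in the MA libraries, and the ratio of the mean sums was 4.15 in place of 11.9. None of the 21 was listed at 0. The part of these markers in the differences of the 10 genes was not tested.

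The markers of meningeal fibroblasts gave another picture. Of 22 genes, 21 were tested, and none passed the adjusted threshold (limma; 3 passed an unadjusted p under 0.05). Their median log2 fold change was 0.061, and 16 of 21 were positive, against 47.3% of all tested genes. Wholly above the Control libraries lay 4 of 21, against 7.32% of tested genes. Col1a1, Col1a2 and Lum, matrix genes of fibroblasts, had log2 fold changes of 0.02, 0.16 and 0.07. Ptgds, the prostaglandin D synthase gene and the most abundant, was at 0.23. The genes that passed the unadjusted threshold were Dcn, which encodes the proteoglycan decorin, at 1.30 (limma adjusted p = 0.140, and 0.0124 without MA replicate 3), Mgp, which encodes matrix Gla protein, at 0.52 (limma adjusted p = 0.366), and Slc6a20a, an amino acid transporter gene, at 0.38 (limma adjusted p = 0.423). These and Foxd1, at 0.12, were the 4 genes without overlap. The summed level was 931 to 1390 in the Control and 1036 to 1543 in the MA libraries, and the groups overlapped. Ptgds made up most of it. Without Ptgds the sum was 80.6, 90.4 and 114 in the Control and 131, 126 and 129 in the MA libraries, without overlap, and the ratio of the mean sums was 1.35. Some of the 10 genes are also used as markers of the leptomeninges, and among these 21 fibroblast markers Dcn was the only one with a log2 fold change over 1. None was listed at 0, and the part of these markers in the differences of the 10 genes was not tested.

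**Figure D4:**
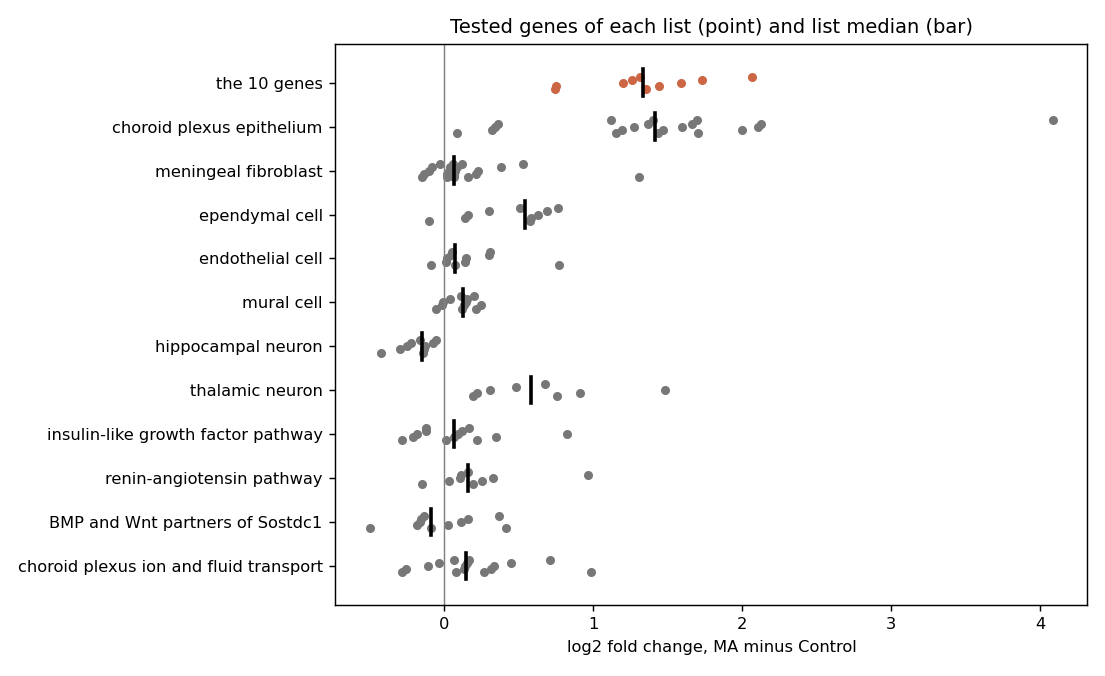
Log2 fold change, MA minus Control (x axis), of the tested genes of each list, with a point per gene and a bar at the list median. Vertical offsets within a list only keep points apart. The 10 genes (orange, median 1.33) and the choroid plexus epithelium list (median 1.41) lie to the right of the other lists, whose medians range from -0.15 to 0.58.

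Other cell types that dissected tissue could hold were read from lists of their markers. No gene of these lists passed the adjusted threshold (limma). At an unadjusted limma p under 0.05, 2 to 3 genes of the ependymal, endothelial and thalamic lists and 0 of the mural list were higher. At that threshold 2 of the hippocampal list were lower, against 4.99% of tested genes higher and 5.46% lower. The median log2 fold change was 0.54 for the 10 ependymal genes, which mark the ciliated lining of the ventricles, with Mia at 0.76, Rsph1 at 0.69, Ccdc153 at 0.63 and Rarres2 at 0.16. Their summed back-transformed level was 41.3 to 68.0 in the Control and 50.6 to 98.0 in the MA libraries, highest in MA replicate 3. The 8 thalamic genes had a median of 0.58, with Tnnt1 at 1.48, Tcf7l2 at 0.91, Ramp3 at 0.76 and Prkcd at 0.68. Unlike the 10 genes, all 8 had their lowest MA level in replicate 3, and their sum was 32.0 to 41.3 in the Control libraries and 79.1, 101 and 29.4 in MA replicates 1, 2 and 3. Without MA replicate 3, Tnnt1, a troponin gene, passed (log2 fold change 2.21, limma adjusted p = 0.0157), as did the endothelial transporter gene Slco1a4 (1.10, limma adjusted p = 0.0298). Log2 fold changes were positive for 8 of 8 thalamic, 9 of 10 ependymal, 10 of 11 endothelial and 9 of 12 mural genes, against 47.3% of tested genes. The 10 hippocampal neuron genes all had negative log2 fold changes, with a median of -0.15. Neurod6 was at -0.43, Wfs1 at -0.30, Neurod2 at -0.25 and Bok at -0.13. The sum of this list was 376 to 518 in the Control and 343 to 406 in the MA libraries. The 11 endothelial genes had a median of 0.070, with Ly6c1 at 0.04, Cldn5 at 0.30 and Slco1a4 at 0.77, and a sum of 167 to 190 and 184 to 229. The 12 mural genes had a median of 0.12, with Vtn at -0.01, Rgs5 at -0.02, Tagln at 0.21 and Myh11 at 0.24, and a sum of 102 to 113 and 110 to 116. None of these genes was listed at 0, and their part in the differences of the 10 genes was not tested.

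Around Igf2 and Igfbp2, 13 of 16 genes of the insulin-like growth factor pathway were tested and none passed the adjusted threshold (limma; 1 was higher at an unadjusted p under 0.05). The median log2 fold change was 0.062. Igfbp3, a further binding protein gene, was at 2.50, 2.60 and 2.43 on the log2 scale in the Control and 3.26, 3.58 and 3.17 in the MA libraries, without overlap (log2 fold change 0.83, limma adjusted p = 0.0679, and 0.0282 without MA replicate 3). The abundant Igfbp7, Igfbp4 and Igfbp5 had log2 fold changes of 0.35, -0.28 and -0.18. The receptor genes Igf1r, Igf2r and Insr were at 0.12, 0.09 and 0.06. H19, the non-coding RNA gene next to Igf2 in the same imprinted region, fell under the filter, with log2 levels of at most 0.30 in the Control and from 0.31 to 0.56 in the MA libraries.

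Around Ace, 9 of 13 genes of the renin-angiotensin pathway were tested, with a median log2 fold change of 0.16 and none past the adjusted threshold (limma; 1 was higher at an unadjusted p under 0.05). Agt, which encodes the angiotensin precursor, was at 3.53, 3.52 and 4.18 on the log2 scale in the Control and 5.01, 5.13 and 4.0 in the MA libraries. Its groups overlapped through MA replicate 3 (log2 fold change 0.97, limma adjusted p = 0.357, and 0.0389 without that library). Lnpep, an aminopeptidase gene, was at 0.33, and the abundant Atp6ap2, Ctsa and Mas1 were at 0.11, 0.16 and 0.25. The renin gene Ren1 was listed at 0 in 3 of the libraries and fell under the filter.

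For Sostdc1, 11 of 12 genes of its BMP and Wnt partners were tested, and none passed the adjusted threshold (limma; 2 were higher and 1 lower at an unadjusted p under 0.05). Their median log2 fold change was -0.090. The BMP ligand genes Bmp6 and Bmp7 were at 0.41 and 0.36, the antagonist gene Grem1 at -0.50, and the receptor genes Bmpr2, Lrp6 and Bmpr1a at -0.13, -0.18 and -0.09. For the channels and Slc13a4, 16 of 18 further genes of ion and fluid transport were tested, with a median of 0.14. At an unadjusted limma p under 0.05, 4 were higher and 0 lower, against 4.99% and 5.46% of tested genes. A single gene of these passed the adjusted threshold, Slc4a2, an anion exchanger gene (chloride for bicarbonate). Its log2 levels were 3.36, 3.33 and 3.30 in the Control and 4.16, 3.94 and 4.03 in the MA libraries (limma log2 fold change 0.71, standard error 0.09, adjusted p = 0.0394). The call was lost with no filter, with the replicate block and in each fit without a single library other than MA replicate 3. Trpm3, a cation channel gene, was at 0.98 (limma adjusted p = 0.141, and 0.0498 without MA replicate 3). The sodium pump beta subunit genes Atp1b1 and Atp1b2, abundant in many brain cells, were at -0.04 and 0.15.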

How the data were processed

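Hippocampal RNA of 3 Control and 3 MA mice was sequenced, with 1 library per label. The authors deposited log2 values per gene, in a table named as RPKM. According to the methods, Hisat2 was used for alignment and featureCounts for counting, followed by scaling to gene length, whereas the submitters' processing notes name Bowtie 0.12.2, mm8 and mm9. The log transform and the common distribution of the libraries are not described. An offset of 1 was taken, since the lowest value is 0. Depth is unknown, so no interval that needs it is given.

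The deposited values were tested with limma 3.58.1 in R 4.3.3 (lmFit, eBayes with a trend, MA against Control, no covariate, Benjamini-Hochberg adjustment) over 13321 genes that reached 0.5 after back-transformation in 3 or more libraries. The fit was tested on simulated data. Single genes also had an exact two-sided permutation test. The 10 genes and all lists were chosen with earlier results of these data known. Named were the 10 genes, Ttr, Folr1 and Kl, the 3 genes of highest level and 2 of largest difference in each list, genes of a list that passed a test or whose role bears on a member (the last chosen after their values were seen), and the 5 genes most alike in pattern. Some genes that this rule names are not reported here. Coordinates are those of GENCODE M21 on GRCm38, for location only, since the build of the table is not settled. Same-numbered libraries did not deviate together across genes (r of -0.197, -0.242 and -0.337), and the replicate number served as a block in an alternative only. Further alternatives were pseudocounts of 0.1 and 0.01, no filter, a minimum mean of 5, median centring, quantile normalization, no trend, sample quality weights and each library left out. The labels describe each library as a mouse.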

Additional observations from a re-analysis of the deposited data

How the results depend on the processing

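All 10 genes were higher in MA under each of 14 alternatives, as were the 4 tested with a minimum mean of 5. The count of the 10 past the adjusted threshold (limma), 2 with all libraries, was 0 with a pseudocount of 0.1 or 0.01 and with no filter, 1 with a minimum mean of 5, where 4 were tested, and 9 with sample quality weights. Col8a1, which passed the filter only through the MA libraries, was among these 9. The count ranged from 0 to 6 when single libraries were left out. In the fits with 0, from 9 to 10 of the 10 passed an unadjusted limma p under 0.05. Among all tested genes, in either direction, 1394 and 1393 of 13321 did so with pseudocounts of 0.1 and 0.01. With no filter it was 1609 of 16060. Without Control replicate 1, 2 or 3 or MA replicate 2 it was 829, 911, 1011 and 1031 of 13321. The median log2 fold change of the 10 was 1.75 with a pseudocount of 0.01, which compresses low levels less than an offset of 1 but widens their spread. It was 1.08 to 1.55 without single libraries. Among all tested genes, 35 calls became 3 with no filter, 20 with a minimum mean of 5, 586 with sample quality weights and 0 to 257 without single libraries (no call without Control replicate 2 or 3 or MA replicate 2, where 911, 1011 and 1031 genes passed an unadjusted p under 0.05).

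With the replicate block, 15 tested genes passed. Of the 10, Kcne2 (limma adjusted p = 0.0441) and Ace (0.0479) passed and Slc13a4 (0.0658) did not. Same-numbered libraries did not deviate together across all tested genes. For the 10 genes, however, the mean centred level rose with the replicate number in both groups. It was -0.81, -0.69 and -0.51 in Control replicates 1, 2 and 3 and 0.25, 0.62 and 1.14 in MA replicates 1, 2 and 3. Whether equal numbers stand for shared handling was not tested. The choroid plexus epithelium list gave 0 calls with no filter, 2 with a minimum mean of 5 and 16 with sample quality weights. It gave 5 with the replicate block and 0 to 11 without single libraries. Among all tested genes these fits gave 3, 20, 586, 15 and 0 to 257 calls. With sample quality weights, 586 of 13321 tested genes passed. In that fit 2 of 21 fibroblast, 1 of 10 ependymal, 1 of 11 endothelial and 3 of 8 thalamic genes passed. So did 1 of 13 insulin-like growth factor, 1 of 9 renin-angiotensin and 2 of 16 ion transport genes. The cause of these changes was not tested. With 3 libraries a group and depth unknown, the precision of the low genes, Col8a1 and Kcne2 in the Control libraries, cannot be given beyond the spread between libraries.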

Other observations

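Of the 891 tested genes outside the 10 whose 6 levels spanned at least 1 on the log2 scale, the 5 with the highest Pearson r with the mean centred level of the 10 genes over 6 libraries were Sulf1 (0.989), Steap1 (0.988), Ccdc141 (0.984), Slc4a5 (0.984) and Lbp (0.983). The 6 libraries fall into 2 groups of 3, so a difference between the groups alone gives a high r, and these values only describe likeness. Sulf1, a heparan sulfate endosulfatase gene, was at 1.10, 1.08 and 1.39 on the log2 scale in Control replicates 1, 2 and 3 and at 2.08, 2.23 and 3.03 in MA replicates 1, 2 and 3. Slc4a5, a sodium-bicarbonate cotransporter gene of choroid plexus, was at 0.27, 0.44 and 0.29 in the Control and 1.72, 1.88 and 2.48 in the MA libraries, and was the one of these 5 that passed the adjusted threshold (log2 fold change 1.70, limma adjusted p = 0.0315). Slc4a5 passed the filter only through the MA libraries, which fixed its separation in advance, so its call sets it apart from the others in no informative way. Steap1, a metalloreductase-family gene, had a log2 fold change of 1.59 (limma adjusted p = 0.150), Ccdc141 of 1.05 (0.0685) and Lbp, which encodes the lipopolysaccharide-binding protein, of 1.24 (0.179). For Sulf1 it was 1.26 (0.147).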
